A study of Mus musculus with 2 samples.

Results

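Interferon gamma (Ifng) and the other lymphocyte cytokines Tnf, Il2, Il4, Il10, Il13, Il17a, Il21, Il22 and Csf2 were followed through the cells of mouse ovarian tumors, 10 of the 32285 genes counted. They were selected on their summed UMIs per cell class in these same libraries, so their distribution over cell classes is given as a description, without a test. The cells came from tumors at abraded peritoneal walls of female C57BL/6 mice, 6 to 8 weeks old, that carried syngeneic SO ovarian cancer cells (p53-/-, Myc, Hras). The mice received control IgG or an Activin A neutralizing antibody by intraperitoneal injection, which blocks a ligand of the TGFβ superfamily. Tumors were pooled within a treatment into 1 single-cell library each. By the labels 7 control IgG and 8 antibody mice were pooled after 10 days of treatment, while the study's text gives other numbers of mice and days for its single-cell experiment.

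With 1 library per treatment there was no replicate and no test between treatments, and an effect of the antibody cannot be told apart from how each library was handled and sequenced. Levels are given as CPM, the UMIs (counted RNA molecules) of a gene per 1000000 UMIs of all cells of a class. Levels carry exact Poisson 95% intervals, shares carry exact Clopper-Pearson intervals, and log2 ratios, taken as antibody over control IgG unless stated, carry conditional binomial intervals. These intervals hold counting error alone, and they understate the error of a gene whose UMIs came from a handful of cells. The libraries held 98174850 and 74117462 UMIs. Of their barcodes, 8770 and 6386 had 1000 to 8500 genes, 1000 to 100000 UMIs and no more than 10% of UMIs from mitochondrial genes, with medians of 5719 and 4660 UMIs, and 19 barcodes were present in both libraries. Cells were assigned to classes by lists of marker genes, at least 3 of a list detected and at least 500 CPM in sum. T, NK and innate lymphoid cells made up 5428 (61.9%) of the control IgG cells and 4429 (69.4%) of the antibody cells, macrophages 1628 (18.6%) and 554 (8.68%), fibroblasts 203 and 227, and cancer cells 212 and 219. Cells that met the lists of 2 or more compartments (477 and 324, called mixed here) were kept out of every class, and 422 and 359 cells met none. The T cell receptor chain gene Cd3e stood at 355 and 368 CPM in the T and NK gate against 2.32 and 1.60 CPM in the fibroblast gate, and Col1a1 at 5.84 and 5.19 CPM against 7467 and 8522 CPM.

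Interferon gamma is the signature product of activated T helper 1, cytotoxic T and NK cells, and it drives antigen presentation and chemokine production in the cells that sense it. Tnf is made by activated lymphocytes and, in large amounts, by macrophages. Il2 feeds T cell expansion, Il4 and Il13 are the cytokines of type 2 immunity, Il17a and Il22 those of type 17 immunity, Il21 comes from helper T cells that assist B cells, Csf2 encodes GM-CSF, a growth factor of myeloid cells, and Il10 restrains inflammation. In T cells most of these genes are silent until the antigen receptor sends NFAT to their regulatory regions, and a cell then makes them in bursts.

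The 200 bases before the transcription start are shown for Ifng, Tnf, Il4 and Il13, the genes that gave the widest T cell expression (Ifng), the widest expression outside T cells (Tnf) and the largest counts in a few T helper cells (Il13 and its neighbour Il4). Capitals mark the NFAT core, GGAAA or its reverse complement TTTCC. All are from RefSeq on GRCm38.p6, written 5′ to 3′ on the strand of the gene.
Ifng, chr10:118440846-118441045, plus strand: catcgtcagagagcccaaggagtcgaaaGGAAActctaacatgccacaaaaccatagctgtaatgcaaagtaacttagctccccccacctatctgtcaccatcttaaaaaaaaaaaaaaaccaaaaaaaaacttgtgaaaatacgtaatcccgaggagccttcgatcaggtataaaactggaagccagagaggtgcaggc
Tnf, chr17:35202008-35202207, minus strand: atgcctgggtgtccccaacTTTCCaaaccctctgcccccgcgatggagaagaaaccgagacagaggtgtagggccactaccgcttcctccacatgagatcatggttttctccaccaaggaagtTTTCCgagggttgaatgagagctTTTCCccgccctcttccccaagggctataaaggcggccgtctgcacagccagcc
Il4, chr11:53618666-53618865, minus strand: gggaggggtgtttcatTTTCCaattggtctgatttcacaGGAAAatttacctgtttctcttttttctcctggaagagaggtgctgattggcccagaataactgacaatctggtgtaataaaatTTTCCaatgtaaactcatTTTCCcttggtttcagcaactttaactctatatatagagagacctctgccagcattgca
Il13, chr11:53634703-53634902, minus strand: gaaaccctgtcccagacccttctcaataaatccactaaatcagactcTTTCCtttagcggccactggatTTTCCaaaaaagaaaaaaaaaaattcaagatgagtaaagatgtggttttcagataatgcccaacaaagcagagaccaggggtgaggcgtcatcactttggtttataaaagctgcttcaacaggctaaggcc

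The Ifng sequence held 1 NFAT core, that of Tnf 3, Il4 4 and Il13 2. Of the 9 cytokine genes in the promoter table, 7 held the core on either strand, against 47.6% of 32851 promoters of the same length. TATAAA was present in 6 of the 9, against 9.96% of all promoters, and the AP-1 letters TGANTCA in 0 of the 9, against 5.48%. These are matches of letters and show no binding.

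By GENCODE M21 on GRCm38, Ifng (ENSMUSG00000055170) covers chr10:118441046-118445892 on the plus strand, 231.0 kb downstream of Il22, and Tnf (ENSMUSG00000024401) covers chr17:35199381-35202007 on the minus strand. Il4 (chr11:53602982-53618669) and Il13 (chr11:53631324-53634702) lie 12.7 kb apart on the minus strand, with Csf2 (chr11:54247271-54249667) 612.6 kb beyond Il13. Il2 (chr3:37120523-37125959) and Il21 (chr3:37222759-37232636) are 96.8 kb apart. Il10 lies at chr1:131019845-131024974 and Il17a at chr1:20730905-20734496. All are protein-coding, and the end of Il2 overlaps Adad1 on the opposite strand.

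Ifng was a gene of the T and NK gate. In the control IgG library it gave 4543 UMIs in 1946 of 5428 T and NK cells, a level of 130.1 CPM (126 to 134), and in the antibody library 3466 UMIs in 1516 of 4429 cells, a level of 145 CPM (140.1 to 149.8). These cells held 99.0% and 99.3% of all Ifng UMIs found in gated cells, which leaves out mixed cells. Of 4836 and 4017 Ifng UMIs in all cells, 211 and 503 lay in mixed cells and 36 and 25 in cells of no class. The level in T and NK cells was 0.16 higher on the log2 scale with the antibody (0.09 to 0.22). The share of cells with an Ifng UMI was 35.9% and 34.2%, a log2 ratio of -0.07 (-0.16 to 0.03), in cells with medians of 4805 and 4189 UMIs. After every T and NK cell was thinned to 2000 UMIs, 18.0% (17.0 to 19.0) and 19.7% (18.5 to 20.9) held an Ifng UMI. Ifng was spread over many cells. A total of 398 and 304 T and NK cells were needed to hold 50% of its UMIs, and the T or NK cell with the most held 58 UMIs in the control IgG library, a CD8 T cell, and 26 in the antibody library, a CD4 T cell.

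Within the lymphoid cells, CD4 T cells outside the Treg gate had the highest level in both libraries, 171 CPM (161 to 182) in 897 control IgG cells and 209.6 CPM (195.6 to 224) in 681 antibody cells. In the control IgG library that interval overlapped the interval of NK cells given below. CD8 T cells stood at 121 and 135 CPM, and T cells that met neither the CD4 nor the CD8 gate at 127 and 137 CPM. CD4 T cells were thus above CD8 T cells by 0.50 on the log2 scale (0.39 to 0.60) in the control IgG library and by 0.63 (0.51 to 0.75) in the antibody library, while CD8 T cells and the other T cells differed by less than their counting error in both. NK cells changed place. They stood at 155 CPM (137 to 175) in the control IgG library, above CD8 T cells, and at 119 CPM (103 to 136) in the antibody library, where the interval of their difference from CD8 T cells held 0. Gamma delta T cells (71.0 and 85.4 CPM), innate lymphoid cells (56.6 and 83.3 CPM, on 6 and 9 UMIs) and Treg (43.9 and 40.5 CPM, on 19 and 8 UMIs) had the lowest values, with intervals that overlapped each other and, for innate lymphoid cells, those of CD8 T cells in both libraries.

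Between libraries, Ifng was higher with the antibody in CD4 T cells by 0.29 on the log2 scale (0.16 to 0.43) and in CD8 T cells by 0.15 (0.07 to 0.24), and lower in NK cells by 0.39 (log2 ratio -0.39, -0.65 to -0.12). By cells thinned to 2000 UMIs, 20.8% (18.2 to 23.6) and 26.4% (23.1 to 29.9) of CD4 T cells and 20.7% (16.6 to 25.4) and 17.0% (13.4 to 21.1) of NK cells held Ifng. The separate intervals of the libraries overlapped in either class, for CD4 T cells only from 23.1 to 23.6. Such overlap does not settle whether the shares differed. The CPM differences between libraries were within 2-fold. In the whole T and NK gate, 6.27% of the 15942 genes with at least 10 UMIs passed 2-fold in either direction. That share was 1.48% of the 12672 genes with at least 50 UMIs. With at least 20 UMIs, 156 genes were 2-fold higher and 173 lower of 11029 in CD4 T cells. It was 180 and 281 of 13186 in CD8 T cells, and 161 and 147 of 9576 in NK cells.

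**Figure D1:**
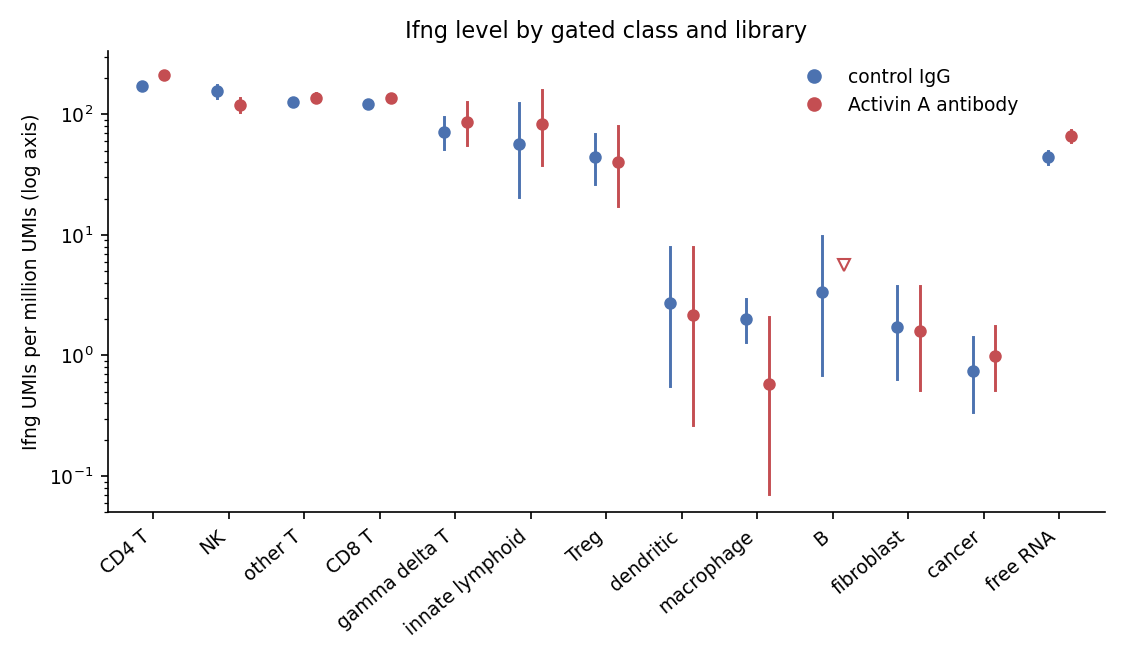
Ifng CPM (log axis) in each gated class of the control IgG library (blue) and the antibody library (red), with free RNA from barcodes under 100 UMIs at the right. Points are levels, bars exact Poisson 95% intervals for counting error, and the open triangle marks the limit of 3 UMIs where none was found (B cells, antibody). T, NK and innate lymphoid classes lie between 40.5 and 209.6 CPM, and the B, myeloid, fibroblast and cancer classes plotted lie under 4 CPM where UMIs were found.

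In the macrophage, fibroblast, cancer and B cell gates Ifng was counted in few UMIs. Macrophages gave 25 UMIs (2.0 CPM) and 2 UMIs (0.58 CPM), fibroblasts 6 UMIs (1.74 CPM) and 5 UMIs (1.60 CPM), and cancer cells 9 UMIs (0.75 CPM) and 12 UMIs (1.00 CPM). B cells gave 3 UMIs in the control IgG library and 0 in the antibody library, where 3 UMIs would be 5.64 CPM. T and NK cells were above fibroblasts by 6.23 on the log2 scale (5.10 to 7.67) and 6.50 (5.28 to 8.12). Free RNA, read from barcodes with under 100 UMIs, held Ifng at 44.0 and 66.1 CPM. The fibroblast gate held 3.95% (1.44 to 8.71) and 2.42% (0.78 to 5.71) of that level and the cancer gate 1.70% and 1.51%.

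Whether Ifng in cells with collagen RNA went with T or NK genes of the same cells was asked without the class gates. All cells with at least 10 UMIs of Col1a1, Col1a2 and Col3a1 in sum were taken, 460 in the control IgG library and 469 in the antibody library, and divided by their UMIs of the 16 T and NK list genes. In the control IgG library the 156 cells with 3 or more such UMIs held 50 Ifng UMIs in 22 cells (6.23 CPM), the 180 cells with 1 or 2 held 7 UMIs (1.08 CPM), and the 124 cells with 0 held 2 UMIs (0.81 CPM). In the antibody library the 56 cells with 3 or more held 326 Ifng UMIs in 13 cells (129 CPM), the 182 cells with 1 or 2 held 6 UMIs (0.74 CPM), and the 231 cells with 0 held 2 UMIs (0.38 CPM). Most Ifng UMIs of the collagen-positive cells thus lay in those with 3 or more T or NK UMIs. The log2 ratio of cells with 3 or more over cells with 0 was 2.94 (1.01 to 6.03) in the control IgG library, on 2 UMIs in the lower group, and 8.40 (6.53 to 11.45) in the antibody library. In the same split 6.04% and 4.35% of genes with at least 20 UMIs were 2-fold higher in the cells with T or NK RNA, the T and NK genes of the split among them.

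A cell of the antibody library carried most of this count. It held 310 Ifng UMIs, 92.8% of those in the collagen-positive cells of that library, among 19611 UMIs in all, with 125 Col1a1, 3 Cd3e, 3 Trac, 5 Cd4, 3 Tbx21 and 3 Il21 UMIs, and it met both the T and NK and the fibroblast lists. The next cell of that library by Ifng, a mixed T and myeloid barcode, held 85 UMIs, with 21 UMIs of Il21. Without the first cell the antibody library gave 16 Ifng UMIs (6.38 CPM) in collagen-positive cells with 3 or more T or NK UMIs. Its log2 ratio was then 4.06 (1.97 to 7.22). The control IgG library stood at 6.23 CPM with all cells. Without its own top cell, of 5 Ifng UMIs, it stood at 5.63 CPM, with a log2 ratio of 2.79 (0.86 to 5.88).

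Depth moved with the split. Cells with 3 or more T or NK UMIs had medians of 50250 and 42998 UMIs, against 13306 and 12346 for cells with 0. The mix of gates moved with the split too. In the control IgG library the 156 cells with 3 or more included 101 mixed, 34 cancer-gated and 21 fibroblast-gated cells. Of the 124 with 0, 91 were fibroblast-gated. In the antibody library 7 of 56 against 160 of 231 were fibroblast-gated. The part of the gates in these ratios was not tested. When the cells were instead divided at 200 CPM of T or NK genes, which gave medians of 30453 against 29459 UMIs in the control IgG library and 20838 against 28724 in the antibody library, 45 Ifng UMIs lay in 56 cells and 14 in 404 cells (log2 ratio 4.72, 3.83 to 5.70), and 325 UMIs, the 310 of the cell above among them, lay in 39 cells and 9 in 430 cells. This division was added after the depths had been seen. The planned check, with every cell thinned to 2000 UMIs, left 1 Ifng UMI against 2 in the control IgG library. That is too few to show the division at equal depth. In the antibody library it left 26 against 2, where 1 cell had held most of the UMIs before thinning. A division by macrophage list genes in place of T and NK genes gave log2 ratios of 0.82 (-0.76 to 2.83) and -2.11 (-7.53 to 0.68), both with 0 inside the interval. These ratios, again of 3 or more over 0, rested on 20 against 4 and 1 against 11 Ifng UMIs. Cells with 1 or 2 macrophage list UMIs stood outside them with 35 and 322 Ifng UMIs, the 310 of the cell above among these.

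Read from the side of Ifng, 22 of the 30 control IgG collagen-positive cells with an Ifng UMI held 3 or more T or NK UMIs (73.3%, 54.1 to 87.7), against 134 of 430 without Ifng (31.2%, 26.8 to 35.8). In the antibody library it was 13 of 21 (61.9%, 38.4 to 81.9) against 43 of 448 (9.60%, 7.03 to 12.7). Cells with Ifng were deeper, with medians of 42879 against 29062 UMIs in the control IgG library and 36632 against 27832 in the antibody library. By CPM their T and NK list genes stood at 1050 against 151 and at 943 against 62.2. Of the cells with at least 2 Ifng UMIs, 13 of 14 and 5 of 5 held 3 or more T or NK UMIs. The proportion of Ifng to T list genes in these cells had an interval that overlapped that of T and NK cells. Per 100 UMIs of the T list, T and NK cells held 2.80 (2.72 to 2.88) and 3.30 (3.19 to 3.41) Ifng UMIs, free RNA 2.98 and 4.44, and collagen-positive cells 2.68 (2.04 to 3.48) and, without the cell of 310 UMIs, 2.49 (1.59 to 3.73). With that cell the antibody value was 32.8. Doublets were not called, and whether these barcodes hold a pair of cells was not tested.

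**Figure D2:**
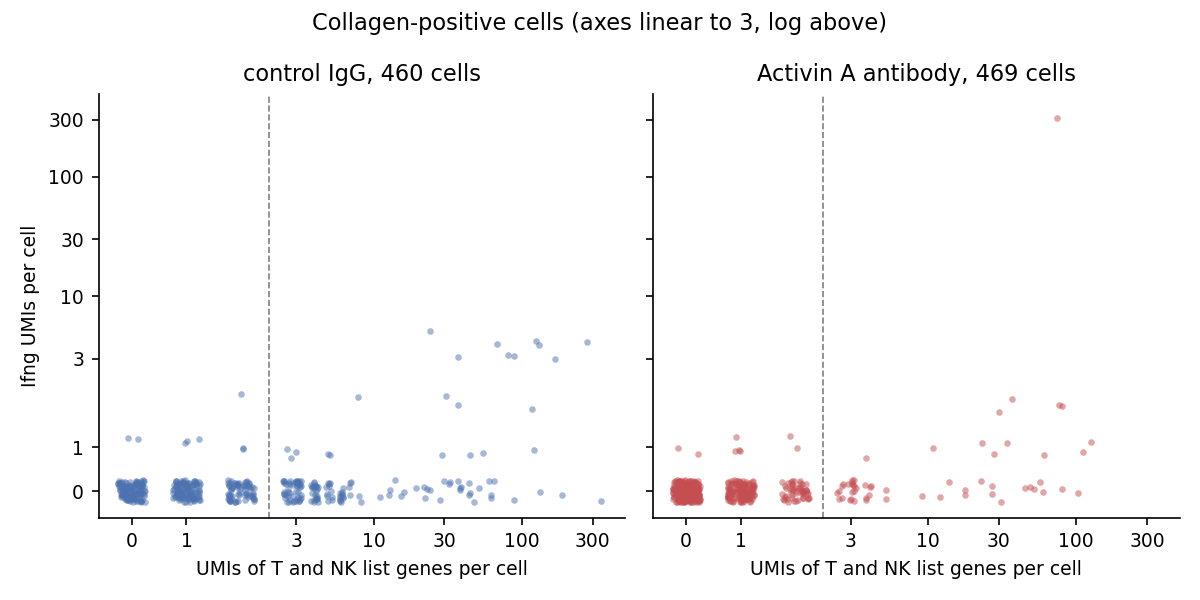
Each point is a collagen-positive cell of the control IgG library (left, 460 cells) or the antibody library (right, 469 cells), with UMIs of the T and NK list genes on the x axis and Ifng UMIs on the y axis, both linear up to 3 and logarithmic above, points moved by up to 0.25 to keep them apart. The dashed line marks 3 T or NK UMIs. Cells with 2 or more Ifng UMIs lie to its right apart from 1 cell, and the cell at the top right holds 310 Ifng UMIs.

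Genes with at least 50 UMIs in T and NK cells were compared with Ifng over classes, a limit that favours lymphocyte genes. Over 21 points, the classes of at least 50 cells in either library, log2(CPM + 10) of Apol7e had the highest Pearson correlation with that of Ifng among 12672 genes (0.987), followed by Gprin3 (0.985), Sh2d1a, which encodes the adaptor SAP (0.978), Tnfsf10, the death ligand TRAIL (0.978), Sytl2 (0.977), the cytotoxic granule gene Nkg7 (0.976), Gm17745 (0.976), and Trbc1, Ms4a4b and Prkcq (0.974 each). Nkg7 and Trbc1 are also genes of the gates. The points share libraries and most of the contrast is lymphoid against other classes, so these values are a description.

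Among CD8 T cells thinned to 2000 UMIs, Ccl3, Gpm6b and Ccl4 were at least 2-fold higher in cells with Ifng in both libraries. Ccl3, a chemokine of activated cytotoxic cells, stood at 225 CPM in the 530 control IgG cells with Ifng and 74.5 CPM in the 2390 without, and at 388 against 104 CPM in the 467 and 1891 antibody cells (log2 ratios 1.59, 1.35 to 1.83, and 1.90, 1.69 to 2.11). Ccl4 stood at 1183 against 503 CPM and at 1870 against 645 CPM, and Gpm6b at 29.2 against 11.1 CPM and 40.7 against 13.7 CPM. These 3 were the only ones of 7898 genes (0.038%) to differ at least 2-fold upward in both libraries. Srgap3, Cish, a feedback inhibitor of cytokine signalling, and Havcr2, which encodes the inhibitory receptor TIM-3, were higher by 0.71 to 1.10 on the log2 scale. In CD4 T cells 0 of 4404 genes reached 2-fold in both libraries. The genes with the largest lower value of the 2 libraries were Gbp2, an interferon-induced GTPase, at 84.7 against 45.9 CPM and 124 against 68.0 CPM, and the inhibitory receptor gene Lag3 at 73.8 against 40.2 CPM and 79.1 against 44.6 CPM. Tbx21 encodes the type 1 factor T-bet. It was detected in 59.8% and 63.3% of unthinned T and NK cells with Ifng, against 41.2% and 47.4% of those without. The cells with Ifng were deeper, and by CPM the Tbx21 log2 ratios were 0.23 (0.15 to 0.31) and 0.17 (0.09 to 0.25). The related factor Eomes was lower in CPM in the cells with Ifng (log2 ratios -0.53, -0.75 to -0.30, and -0.78, -1.0 to -0.56). By share of cells Eomes stood at 10.4% against 9.94% in the control IgG library and 9.56% against 12.4% in the antibody library.

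Tnf was shared by macrophages and lymphocytes. T and NK cells gave 1662 UMIs in 1063 cells (47.6 CPM, 45.3 to 49.9) in the control IgG library and 1163 UMIs in 748 cells (48.6 CPM, 45.9 to 51.5) in the antibody library, a log2 ratio of 0.03 (-0.08 to 0.14). By the share of cells with a UMI, 19.6% and 16.9%, the ratio had the other sign, -0.21 (-0.35 to -0.08), and after thinning to 2000 UMIs 8.09% and 8.42% of these cells held Tnf. Macrophages gave 1795 UMIs in 773 of 1628 cells (144 CPM, 137 to 151) and 550 UMIs in 254 of 554 cells (159.7 CPM, 147 to 174), a log2 ratio of 0.15 (0.01 to 0.29). Macrophages were above T and NK cells by 1.59 (1.5 to 1.69) and 1.72 (1.57 to 1.86) on the log2 scale. Neutrophils stood at 215 and 106 CPM on 16 and 34 UMIs, dendritic cells at 62.0 and 54.5 CPM. As with Ifng, CD4 T cells (62.8 and 64.2 CPM) were above CD8 T cells (43.5 and 44.0 CPM), by 0.53 and 0.55 on the log2 scale with intervals above 0, and NK cells were lower in their values (36.2 and 30.6 CPM).

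Over all cells Tnf was nonetheless lower with the antibody, at 52.1 against 35.3 CPM (log2 ratio -0.56, -0.64 to -0.49). Macrophage-gated cells held 43.0% (41.5 to 44.5) of all Tnf UMIs with 15.6% of all UMIs in the control IgG library, and 27.2% (25.2 to 29.2) with 6.00% in the antibody library. Of the Tnf UMIs in gated cells, T and NK cells held 46.2% and 63.6%. The CPM within macrophages and within T and NK cells was thus not lower with the antibody, while macrophages made up less of the library. It was lower in cells that met several lists, at 24.0 against 9.72 CPM (304 and 108 UMIs, log2 ratio -1.31, -1.64 to -0.98), and in cells that met none, at 115 against 48.8 CPM (275 and 87 UMIs, log2 ratio -1.24, -1.60 to -0.89). Fibroblasts gave 21 Tnf UMIs in 11 cells (6.08 CPM) and 5 UMIs in 5 cells (1.60 CPM), a log2 ratio of -1.93 (-3.69 to -0.48), past a 2-fold limit that 5.74% of genes passed in that gate. By the share of cells with a UMI the ratio was -1.30 (-3.18 to 0.34), in cells with medians of 14243 and 9252 UMIs. The fibroblast level was 15.3% and 3.55% of that in free RNA. C1qa in the fibroblast gate moved the same way, with 16 and 1 UMIs, and the part of macrophage RNA in the fibroblast value was not tested. Cancer cells held Tnf at 0.67 and 1.08 CPM.

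Il10 was highest in Treg and was also counted in cancer cells, fibroblasts and macrophages. Treg had the highest level, 102 CPM (73.9 to 137) on 44 UMIs in 14 of 54 cells and 81.1 CPM (46.3 to 132) on 16 UMIs in 10 of 28 cells, above other CD4 T cells by 3.76 and 4.08 on the log2 scale. The Treg gate takes T cells with a UMI of Foxp3, the factor that defines Treg, so shares of Foxp3 restate this result from the side of Il10. Of the T and NK cells with an Il10 UMI, 9.66% and 10.6% also held Foxp3, against 0.78% and 0.44% of the others. Maf, an activator of Il10 in T cells, was found in 37.9% and 33.0% against 19.5% and 18.6%, and Prdm1, which encodes Blimp-1, in 41.4% and 33.0% against 19.6% and 18.3%. The cells with Il10 were deeper, with medians of 6681 and 4642 against 4774 and 4180 UMIs, and the part of depth in these shares was not tested. By CPM the Maf log2 ratios in cells with over cells without Il10 were 1.53 (1.32 to 1.74) and 1.28 (0.96 to 1.59). Those of Prdm1 were 0.88 (0.57 to 1.19) and 0.86 (0.37 to 1.31). CD8 T cells held more Il10 UMIs than Treg in number, 119 in 86 cells (5.67 CPM) and 112 in 61 cells (7.96 CPM). Their log2 ratio of 0.49 (0.10 to 0.87) rested on 1 antibody cell with 29 UMIs, and without it was 0.06 (-0.36 to 0.47). With the top cell of each library left out it was 0.13 (-0.29 to 0.55).

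Cancer-gated cells, marked by Dlk1 at 1238 and 1248 CPM, held 186 Il10 UMIs in 69 of 212 cells (15.5 CPM, 13.3 to 17.9) and 196 UMIs in 74 of 219 cells (16.3 CPM, 14.1 to 18.7), and were above T and NK cells by 1.28 (1.00 to 1.57) and 1.27 (0.96 to 1.58) on the log2 scale. No cell among them held more than 13 UMIs. Cells that met both the stromal and the cancer lists gave another 169 and 181 Il10 UMIs (23.1 and 21.7 CPM), and 80 and 142 UMIs lay in the 36 and 61 barcodes above 100000 UMIs that the limits removed. Free RNA held Il10 at 8.28 and 12.6 CPM. In the cancer gate Il10 stood at 187% (137 to 259) and 130% (96.3 to 177) of the free RNA level, where Ifng stood at 1.70% and 1.51% and Tnf at 1.67% and 2.40%. Cancer-gated cells were deep, with medians of 57093 and 57037 UMIs, and after thinning to 2000 UMIs 3.32% (1.34 to 6.72) and 3.72% (1.62 to 7.20) held an Il10 UMI, against 1.05% and 1.36% of T and NK cells. Cancer-gated cells without a T, NK or macrophage list UMI held 1 Il10 UMI in 12 cells (3.97 CPM, 0.10 to 22.1) in the control IgG library and 41 UMIs in 45 cells (27.1 CPM, 19.4 to 36.7) in the antibody library. Fibroblasts held Il10 at 14.2 CPM (49 UMIs in 17 of 203 cells) and 12.8 CPM (40 UMIs in 11 of 227 cells), not separable from cancer cells. Among fibroblasts with no Dlk1 UMI it stood at 12.6 CPM (35 UMIs in 12 cells, 13 of them in 1 cell) and 14.5 CPM (39 UMIs in 10 cells, 14 of them in 1 cell). Fibroblasts with a Dlk1 UMI stood at 21.0 and 2.33 CPM, on 14 and 1 UMIs.

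In macrophages Il10 was 7.05 CPM (88 UMIs in 57 of 1628 control IgG cells) against 14.8 CPM (51 UMIs in 26 of 554 antibody cells), a log2 ratio of 1.07 (0.54 to 1.59). Without the cell with the most UMIs in each library it was 1.06. The share of macrophages with an Il10 UMI was 3.5% and 4.69%, with intervals that overlapped, and after thinning to 2000 UMIs it was 1.13% (0.67 to 1.78) and 3.52% (2.13 to 5.44). The macrophage gate itself differed between libraries. The complement gene C1qa, a macrophage marker, stood at 2541 and 1257 CPM in it and the median depth was 7134 and 5702 UMIs, and their part in the Il10 value was not tested. Free RNA also held more Il10 in the antibody library, and macrophages stood at 85.0% (59.7 to 122) and 118% (79.3 to 175) of the free RNA level. In T and NK cells as a whole Il10 was 6.36 and 6.77 CPM (log2 ratio 0.09, -0.21 to 0.39), and -0.10 without the cell with most UMIs in each library.

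**Figure D3:**
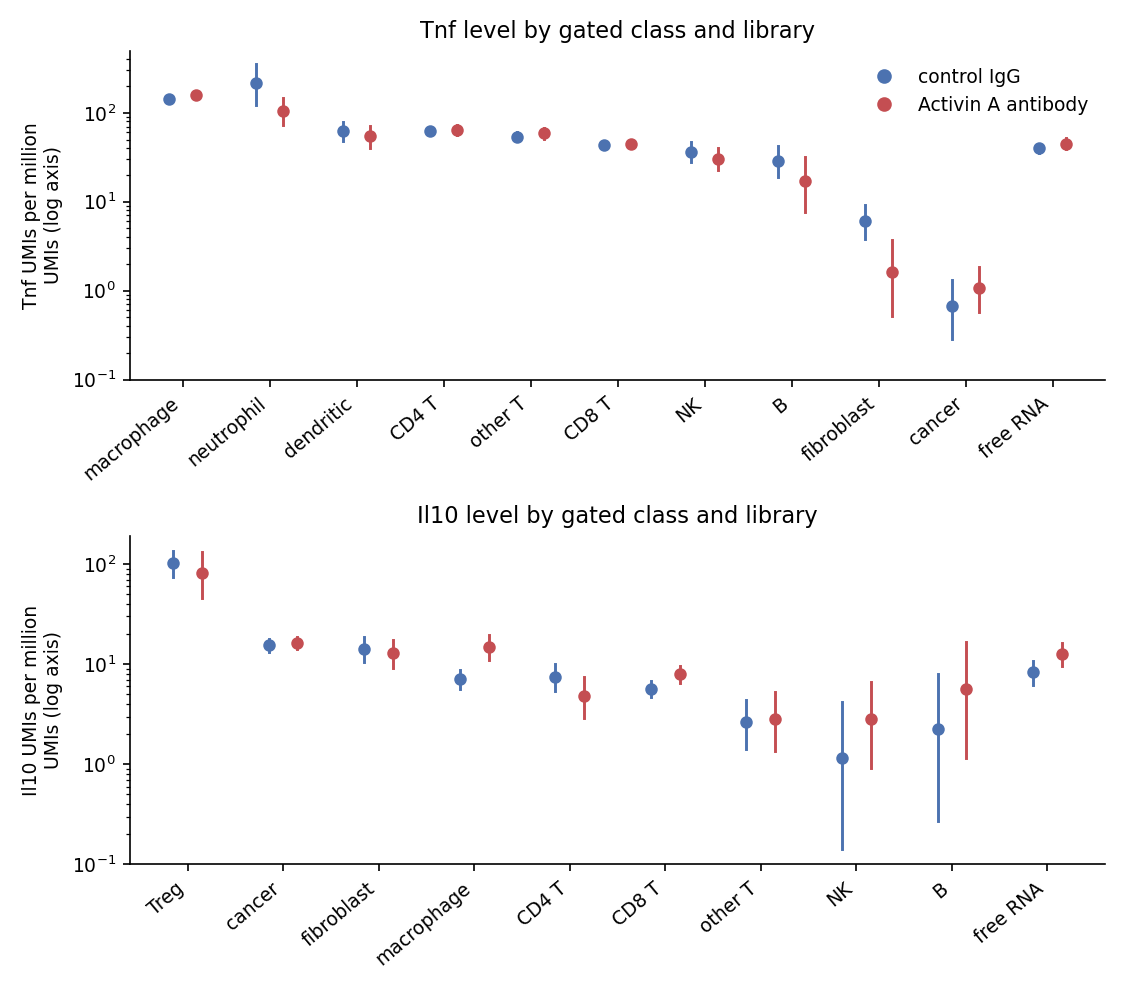
Tnf (top) and Il10 (bottom) CPM (log axis) by gated class in the control IgG (blue) and antibody (red) libraries, with exact Poisson 95% intervals for counting error and free RNA at the right. Tnf is high in macrophages (144 and 159.7 CPM) and under 2 CPM in cancer cells, while Il10 is highest in Treg (102 and 81.1 CPM) and near 16 CPM in cancer cells of both libraries.

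The type 2 cytokine Il13 was made by few cells, some of them with large counts. It gave 76 UMIs in 33 T and NK cells of the control IgG library (2.18 CPM, 1.72 to 2.72) and 180 UMIs in 31 cells of the antibody library (7.53 CPM, 6.47 to 8.71), a log2 ratio of 1.79 (1.4 to 2.20), while the share of cells with a UMI, 0.61% and 0.70%, gave 0.20 (-0.55 to 0.96). The sum and the number of cells thus told different things. CD4 T cells held 43 and 160 of these UMIs (7.5 and 40.3 CPM) in 25 and 23 cells, and CD8 T cells 10 and 5. A pair of antibody CD4 T cells held 70 and 42 UMIs, the first with 7 UMIs of the IL-33 receptor gene Il1rl1, the second with 4 of Gata3, 5 of Csf2 and 3 of Il4. Without those cells the antibody library gave 68 UMIs in T and NK cells and a log2 ratio of 0.39 (-0.11 to 0.88). With the 2 top cells of each library left out it was 0.88 (0.34 to 1.42), and in CD4 T cells 1.17 (0.49 to 1.87). Gata3, the factor of type 2 helper cells, was detected in 54.5% (36.4 to 71.9) and 58.1% (39.1 to 75.4) of T and NK cells with Il13, against 25.4% and 27.5% of those without. By CPM the log2 ratios of Gata3 in cells with over cells without Il13 were 0.50 (-0.09 to 1.04) and 0.80 (0.23 to 1.31). Il1rl1 was detected in 2 of 33 control IgG cells with Il13, at 5.31 CPM against 8.02 CPM in those without (-0.59, -3.65 to 1.27). In the antibody library it was detected in 4 of 31, at 46.6 against 9.68 CPM (2.27, 1.29 to 3.10), the 7 UMIs above among them. Ifng was found in 24 of 33 and 17 of 31 cells with Il13, against 35.6% and 34.1% of the others. The cells with Il13 were deeper, with medians of 9400 and 5771 UMIs against 4788 and 4172.

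Il4 was rarer still, at 49 and 54 UMIs in 17 and 19 cells of whole libraries. T and NK cells held 6 UMIs in 6 cells (0.17 CPM) and 32 UMIs in 12 cells (1.34 CPM), a log2 ratio of 2.96 (1.68 to 4.51), and by the share of cells 1.29 (-0.23 to 2.99). An antibody CD4 T cell with 4 Gata3 UMIs held 11 of the 32, and without it the log2 ratio was 2.35 (1.00 to 3.95). The mast cell and basophil gate held 5 UMIs in 4 cells and 18 UMIs in 3 cells, the 1 class in which most cells gave Il4 (3 of 4 and 3 of 3).

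Csf2 gave 59 UMIs in 39 T and NK cells (1.69 CPM) and 98 UMIs in 32 cells (4.10 CPM), a log2 ratio of 1.28 (0.80 to 1.77), with an equal share of cells (0.72% in both, log2 ratio 0.01, -0.71 to 0.72). An antibody CD4 T cell with 53 Csf2 UMIs, 7 Gata3, 6 Il13, 2 Ifng and 1 Il4 held 54.1% of that count. Without it the log2 ratio was 0.16 (-0.44 to 0.74). Over all T and NK cells with Csf2, Tbx21 was detected in 74.4% and 71.9%, against 47.7% and 52.7% of those without. Gata3 was detected in 28.2% and 46.9%, against 25.6% and 27.5%. By CPM the Gata3 log2 ratios were 0.35 (-0.31 to 0.94) and 0.44 (-0.14 to 0.96). The cells with Csf2 were deeper, with medians of 7166 and 5977 against 4794 and 4166 UMIs. NK cells held Csf2 at 6.42 CPM (11 UMIs in 4 cells) and 8.49 CPM (15 UMIs in 8 cells), above CD8 T cells (0.62 and 0.64 CPM) by 3.38 (2.07 to 4.65) and 3.73 (2.44 to 5.10) on the log2 scale, and innate lymphoid cells held 2 UMIs in each library.

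Il21 lay in CD4 T cells. It gave 70 UMIs in 47 T and NK cells (2.01 CPM) and 87 UMIs in 52 cells (3.64 CPM), a log2 ratio of 0.86 (0.39 to 1.34), and by the share of cells 0.44 (-0.16 to 1.04). CD4 T cells held 49 and 62 of these UMIs (8.55 and 15.6 CPM), CD8 T cells 3 and 10 (0.14 and 0.71 CPM). Cd4 itself was found in 74.5% and 69.2% of cells with Il21 against 19.2% and 17.0% of the other T and NK cells. Cells that held Il21 also held Ifng in 22 of 47 (46.8%, 32.1 to 61.9) and 32 of 52 (61.5%, 47.0 to 74.7), against 35.8% and 33.9% of the others. The cells with Il21 were deeper, with medians of 7257 and 6793 against 4788 and 4162 UMIs. Without the cell with the most Il21 UMIs in each library the log2 ratio of Il21 between libraries was 0.81 (0.32 to 1.30). Another 37 Il21 UMIs lay in mixed cells of the antibody library, 21 of them in the cell with 85 Ifng UMIs.

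Il2 did not differ beyond counting error, with 133 UMIs in 109 T and NK cells (3.81 CPM) and 95 UMIs in 89 cells (3.97 CPM), a log2 ratio of 0.06 (-0.33 to 0.45). CD4 T cells (4.89 and 7.81 CPM) were above CD8 T cells (2.38 and 2.63 CPM) in both libraries, by 1.04 (0.31 to 1.73) and 1.57 (0.83 to 2.30). The T cells outside both gates held 9.38 and 6.58 CPM, the first of these with 14 of 50 UMIs in 1 cell. Tcf7, a gene of naive and stem-like T cells, was found in 52.3% (42.5 to 62.0) of control IgG cells with Il2 against 38.5% of the others, and in 42.7% (32.3 to 53.6) of antibody cells against 34.3%.

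The type 17 cytokines were close to absent. Il17a gave 33 UMIs in 8 T and NK cells of the control IgG library (0.95 CPM), 14 and 8 of them in 2 cells, and 4 UMIs in 3 cells of the antibody library (0.17 CPM). The log2 ratio was -2.50 (-4.46 to -1.01) by UMIs and -1.12 (-3.67 to 0.94) by cells, and without the cell of 14 UMIs it was -1.70 (-3.72 to -0.11). Of the 33 UMIs, 20 lay in T cells that met none of the CD4, CD8, Treg and gamma delta gates, which held 1 in the antibody library. Gamma delta T cells held 9 of the 33 UMIs, and 0 in the antibody library, where 3 UMIs would be 9.86 CPM. Il22 was found as 1 UMI in 1 control IgG T cell and as 0 UMIs in antibody cells, where 3 UMIs in T and NK cells would be 0.13 CPM.

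**Figure D4:**
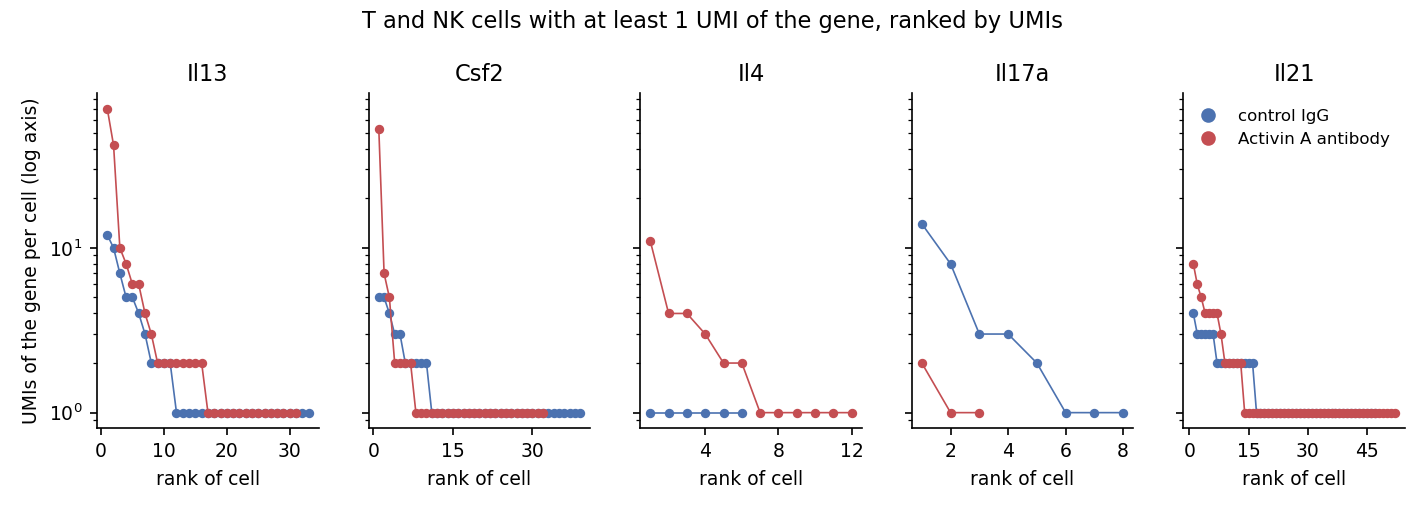
UMIs per cell (log axis) of Il13, Csf2, Il4, Il17a and Il21 in the T and NK cells that held the gene, ranked from the cell with most UMIs, control IgG in blue and antibody in red. Antibody cells with 70 and 42 Il13 UMIs and 53 Csf2 UMIs stand above the rest, while most cells of every gene hold 1 or 2 UMIs.

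Of the 8 members other than Ifng with at least 10 UMIs in T and NK cells, Il4, Il13 and Csf2 were at least 2-fold higher and Il17a at least 2-fold lower in the antibody library, beside 6.27% of all genes with that many UMIs. By the share of thinned cells with a UMI, for which no share over all genes was taken, 2 of the 8 passed the same limit. They were Il4 (1.64, on 2 control IgG and 5 antibody cells) and Il17a (-1.01, on 5 and 2 cells). Il4, Il13, Csf2 and Il17a each lay in at most 39 cells of a library, and their intervals by share of cells held 0. With the top cells of both libraries left out, Il13 (0.88, 2 cells each) and Csf2 (0.28, -0.32 to 0.88, 1 cell each) were within 2-fold, while Il4 (2.62, 1.17 to 4.38) and Il17a (-2.70, -5.85 to -0.65, on 19 and 2 UMIs) were not. With only 1 Il13 cell of each library left out, Il13 was still past 2-fold at 1.33 (0.87 to 1.80). In myeloid cells 1 of 4 members (Il4, in the mast cell gate) passed 2-fold, beside 10.5% of genes. Cells of no class held 32 and 1 Il4 UMIs, and with them added to the myeloid cells, an alternative chosen after seeing the data, Il4 stood at 2.30 against 2.94 CPM on 37 and 19 UMIs (log2 ratio 0.35, -0.53 to 1.19).

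**Figure D5:**
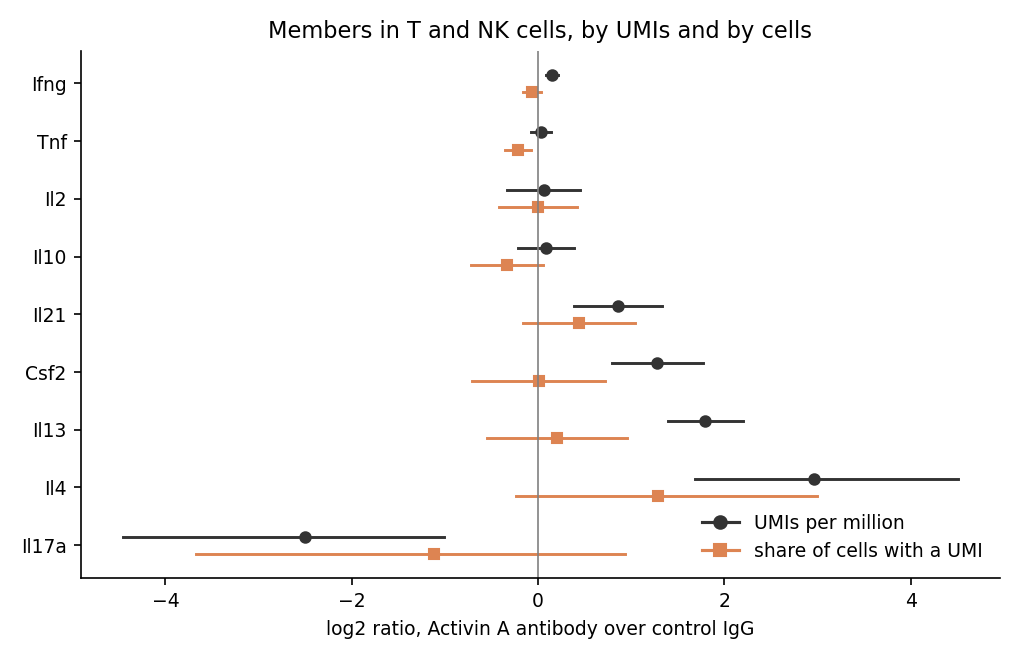
Log2 ratio of antibody over control IgG in T and NK cells for 9 cytokines, by CPM (black circles) and by the share of cells with a UMI (orange squares), with 95% intervals for counting error. By cells the intervals of Csf2 (0.01), Il13 (0.20), Il21 (0.44), Il4 (1.29) and Il17a (-1.12) hold 0, and the values by UMIs lie further from 0. The interval of Tnf by cells (-0.21) lies below 0, while its value by UMIs is 0.03.

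Tnf was detected more often in cells with Ifng than in cells without. Of T and NK cells with Ifng, 26.3% (24.3 to 28.3) and 24.3% (22.2 to 26.6) held Tnf, against 15.9% (14.7 to 17.1) and 13.0% (11.8 to 14.3) of those without, in cells with medians of 6416 and 5248 against 4163 and 3758 UMIs. The share of this difference that goes with depth was not tested. Il2 showed no such excess in the control IgG library, at 1.75% of cells with Ifng against 2.15%, and stood at 2.64% against 1.68% in the antibody library, with overlapping intervals in both.

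Receptors of these cytokines were counted in lymphoid, myeloid, fibroblast and cancer gates. In T and NK cells 17 of 20 receptor genes had at least 20 UMIs and 0 differed 2-fold, beside 3.39% of all genes, with a median log2 ratio of 0.11 against 0.03 over all genes. The 4 with most UMIs were Ifngr1 (502 and 552 CPM), Il2rb (408 and 496), Il2rg (122 in both) and Tnfrsf1b (72.5 and 108 CPM, log2 ratio 0.58, 0.50 to 0.66). In macrophages 0 of 15 differed 2-fold, beside 5.72% of genes, and in fibroblasts 1 of 13, Csf2rb2, on 22 and 0 UMIs, beside 5.74% of genes. The macrophage gene C1qa had 16 and 1 UMIs in the fibroblast gate, and its part in the Csf2rb2 value was not tested. Fibroblasts had both chains of the interferon gamma receptor, Ifngr1 at 90.3 and 108 CPM and Ifngr2 at 70.9 and 51.5 CPM, and cancer cells had them at 26.6 and 23.5 CPM and at 15.5 and 14.6 CPM. Of the cytokines known to induce Ifng, macrophages had Il18 at 33.3 and 34.9 CPM, Il15 at 18.0 and 27.0 CPM (log2 ratio 0.58, 0.22 to 0.94) and Il27 at 17.8 and 15.4 CPM, while Il12a, Il12b and Il23a had under 20 UMIs there.

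The factors and receptors that direct these cytokines had a median log2 ratio of 0.17 in T and NK cells, against 0.03 over all genes. Of the 15, 1 was at least 2-fold lower and 0 were 2-fold higher, beside 3.39% of all genes in either direction. The 4 genes with most UMIs were Stat4 (333 and 378 CPM), Il18r1 (300.0 and 265 CPM, log2 ratio -0.18), Il18rap (174 and 179.7 CPM) and Tbx21 (147 and 200.3 CPM, log2 ratio 0.45, 0.39 to 0.51).

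Genes known to respond to interferon gamma did not share a direction over classes. In T and NK cells 10 of 11 had at least 20 UMIs, with a median log2 ratio of 0.24 against 0.03 over all genes and 1 gene past 2-fold (Nos2, lower, on 17 and 3 UMIs), beside 3.39% of genes. Irf1 stood at 156 and 192 CPM, Cd274, which encodes PD-L1, at 73.3 and 84.4 CPM, and Gbp2 at 49.8 and 60.2 CPM. In macrophages the median was 0.02 with 0 of 10 past 2-fold, and the chemokine gene Cxcl9 stood at 445 and 248 CPM (log2 ratio -0.84, -0.95 to -0.74). In fibroblasts the median was -0.42 and 2 of 9 were at least 2-fold lower, Cxcl9 at 530.0 and 191 CPM (-1.47, -1.60 to -1.33), in 90 of 203 and 37 of 227 cells, and Nos2 on 22 and 5 UMIs, beside 5.74% of genes past 2-fold in either direction. The fibroblast gate itself differed between libraries, with median depths of 14243 and 9252 UMIs. Markers of other cells moved in it too, Krt18 at 59.6 and 23.4 CPM, Dlk1 at 11.9 and 50.3 CPM, C1qa at 4.63 and 0.32 CPM and Ptprc at 17.7 and 10.9 CPM, and their part in these values was not tested. In cancer cells the median was -0.04 and 2 of 9, Cxcl10 (higher) and Cxcl9 (lower), passed 2-fold, beside 4.99% of genes. Cxcl10 stood at 33.5 and 186 CPM there, with 1166 of its 2239 antibody UMIs in 1 cell and a like share of cells with a UMI (21.2% and 23.7%), and Cxcl9 at 9.32 and 4.49 CPM.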

How the data were processed

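Single-cell RNA sequencing counts of 2 libraries were analysed, 1 each for control IgG and the Activin A antibody, grouped by their titles. The matrices deposited by the authors hold unfiltered, unnormalized UMI counts. The submitters' processing notes name Cell Ranger 7.0.1 and mm10, the file headers name an earlier version, and labels and methods name different 10x chemistries. The members and lists were chosen with earlier results of these data known. Raw UMIs were summed per marker-gated class and library (Python 3.11.15, numpy 2.4.6, scipy 1.17.1, pandas 2.3.3). Values printed are for every member, the 4 members of each list with most UMIs in T and NK cells (inducing cytokines in macrophages), the 10 genes most like Ifng, and a few genes picked after their values were seen (Cxcl9, Cxcl10, Nos2, Csf2rb2, Gpm6b, Srgap3, Il15, Ifngr2 and the genes compared within member-positive cells). Results on some list genes are not reported here. No doublet caller was run and mixed cells were set aside. Thinning drew 2000 UMIs per cell and left out shallower cells, 110 and 156 of the T and NK gate. Gene positions came from GENCODE M21 (GRCm38), which held 99.6% of the identifiers. The interval code was tested on simulated data.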

Additional observations from a re-analysis of the deposited data

Results flagged for a closer look

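Il4 and Il17a also gave UMIs in cells that met no marker list and entered no comparison. In the control IgG library 32 Il4 UMIs lay in 4 such cells, more than the 3 UMIs that a count of 0 allows and more than the 6 in all T and NK cells. A cell with 21 of them held 4 UMIs of the basophil gene Cd200r3, and a cell with 9 held 3 UMIs of Cd200r3 and 2 of Mcpt8, another basophil gene. Both held under 2000 UMIs in all, 1991 and 1887. The antibody library had 1 Il4 UMI in cells without a class. In the antibody library 4 Il17a UMIs lay in 1 cell without a class, with 1945 UMIs, 1 Gata3 UMI and 0 Cd3e and Trac UMIs. This equals the 4 Il17a UMIs of all T and NK cells of that library.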

How the results depend on the processing

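No paired analysis was possible because each treatment had 1 library, and for the same reason no replicate could be left out. Of 152 alternative values, 129 stayed within the counting interval of the reported value, or within 1.5 times it for counts of members, and 23 moved. Intervals of low counts are wide, so that staying within them says little. Ifng in myeloid cells, on 28 control IgG and 5 antibody UMIs, ranged from -1.15 to -0.31 and stayed within. The Ifng log2 ratio in T and NK cells ranged from 0.13 to 0.19. In T and NK cells 4 of the 8 other members passed 2-fold, 5 with at least 4 markers and with mixed cells kept (Il21 added, at 1.25 and 1.32), 3 without the top cells and 2 by the share of thinned cells. In myeloid cells 2 in place of 1 passed with at least 4 markers, with limits of 500 genes and UMIs, by the share of thinned cells and without the cell with most UMIs. With mixed cells kept, T and NK cells held 96.6% and 90.4% of gated Ifng UMIs. In collagen-positive antibody cells the log2 ratio of 8.40 became 6.35 at 1 or more T or NK UMI and 4.06 without the cell of 310 UMIs, which was left out after seeing the data. The share of all genes past 2-fold by CPM at 20, 10 and 50 UMIs was 3.39%, 6.27% and 1.48% in T and NK cells and 7.67%, 10.55% and 4.98% in myeloid cells. Among single members, Il13 (1.79) became 0.99 by thinned cells and 1.33 without the top cells, Csf2 (1.28) 0.22 and 0.28, Il4 (2.96) 1.64 by thinned cells, Il17a (-2.50) -1.01, and Il10 in myeloid cells (0.79) 1.47 by thinned cells. Tnf in myeloid cells (-0.01), whose interval held 0, became 0.13 with at least 4 markers and 0.20 by thinned cells, and Il10 in T and NK cells (0.09) became -0.10 without the top cells. The limits are that 1 library per treatment gives no replicate error, and that class gates need a summed level, so shallow cells more often stay without a class.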
